A study of Mus musculus with 8 samples.

Results

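The citric acid cycle burns acetyl groups in the mitochondrial matrix and hands their electrons to the respiratory chain, and the heart relies on it for most of its ATP. Pyruvate enters the matrix through the mitochondrial pyruvate carrier and is turned into acetyl-CoA by the pyruvate dehydrogenase complex. Kinases switch that complex off, and phosphatases switch it on, by acting on its E1 alpha subunit. Anaplerotic enzymes refill or drain the cycle's intermediates. Transcripts of 35 genes of this system were followed: cycle enzymes, pyruvate dehydrogenase with its kinases and phosphatases, pyruvate carriers, and enzymes of anaplerosis and citrate or malate use. They were listed by name, with earlier results of these data known. Each of the 35 symbols matched 1 row among the 45706 genes of the table, and all 35 passed the filter on low counts.

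RNA came from whole hearts of male mice aged 8 weeks. The conditional knockout group (cKO, n = 4) had the genotype Elmsan1 fl/fl;aMHC-Cre+/-, where the alpha myosin heavy chain promoter drives Cre recombinase in cardiomyocytes, so other heart cells keep the gene. Elmsan1 encodes a subunit of a histone deacetylase complex. The floxed group (Elmsan1 fl/fl, n = 2) shared the floxed alleles with cKO, and the Cre group (aMHC-Cre+/-, n = 2) shared the transgene. No allele or agent was common to all 3 groups. Levels are CPM, counts scaled for library size with TMM factors. The main comparison was between cKO and controls, in which the floxed and the Cre mean counted equally. A gene is said to have risen or fallen where its p, adjusted by the Benjamini-Hochberg method over all 15289 genes tested, was under 0.05 in the quasi-likelihood test of edgeR. Means for controls are over the 4 control hearts, and errors are SDs unless named otherwise.

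Library totals ranged from 17509564 to 25833259 estimated counts. Elmsan1 transcript lay between 12.0 and 15.5 CPM in cKO hearts and between 25.3 and 28.6 CPM in controls, with no overlap. Among all genes tested 3909 rose and 4050 fell, so 49.1% of the calls were higher; the share was 59.3% with upper-quartile scaling and 61.5% with library size alone. Those scalings moved the median log2 fold change of all genes up by 0.11 and 0.12. Summed cardiomyocyte markers, of which 2 of 9 rose and 3 fell, reached 44646 to 53972 CPM in cKO and 53861 to 57665 CPM in controls. Endothelial markers, of which 5 of 8 rose and 1 fell, summed to 1238 to 1552 CPM in cKO and 890 to 1000 CPM in controls. Macrophage markers, of which 6 of 8 rose, summed to 294 to 385 CPM in cKO and 192 to 244 CPM in controls. Atrial markers, of which 6 of 7 rose, summed to 4596 to 10161 CPM in cKO and 1737 to 3217 CPM in controls, and fibroblast markers, of which 2 of 8 rose, to 1043 to 1497 and 793 to 1134 CPM. No marker of these 5 lists was at 0. Their part in the results was not tested, and in whole hearts fewer cells of a type and less RNA per cell cannot be told apart.

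Most transcripts of the cycle and of pyruvate dehydrogenase were lower in the cKO hearts. Of the 35 genes 25 fell and 1, Pck2, rose, while 26.5% of all genes tested fell and 25.6% rose. The median of their log2 fold changes was -0.70, beside 0.04 over all genes tested. In 25 of the 35 genes every cKO heart lay below every control heart, an arrangement seen in 25.9% of all genes. In 2 genes, Pck2 and Mpc2, every cKO heart lay above every control, as in 23.4% of all genes. The 10 genes that fell by more than 2-fold were Cs, Ogdh, Ogdhl, Dld, Suclg2, Pdha1, Dlat, Pdk1, Pdp2 and Pdpr. No share of all genes is given here for that threshold. By role, 11 of 15 cycle genes fell, all 4 genes specific to the dehydrogenase complex fell, all 3 phosphatase genes fell, 2 of 4 kinase genes fell, and neither carrier gene passed the test.

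**Figure D1:**
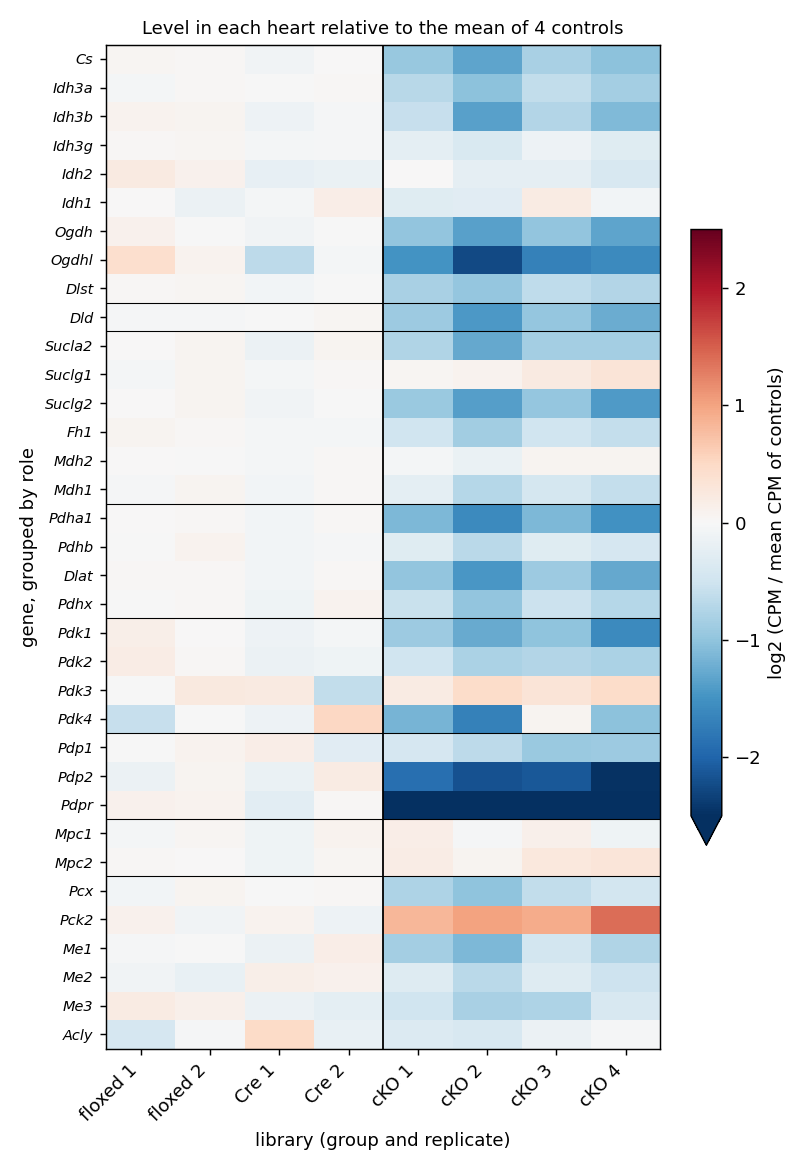
Rows are the 35 genes grouped by role, columns are the 8 hearts, and colour is log2 of CPM over the mean of the 4 controls, with the scale ending at 2.5 in each direction. The cKO columns are below the controls in most rows, Pck2 is above them, and Pdpr is off the low end of the scale in all 4 cKO hearts.

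Longer transcripts were lower in cKO among genes at large, so each change is also given from a fit with an offset, set in each library, for the length and GC content of transcripts. Across 13744 coding genes the log2 fold change had a Spearman correlation of -0.396 with the length of the longest transcript, and across the 35 genes it was -0.40; these points share the same 8 libraries. With the longest coding transcript the correlation across the 35 genes was -0.56. That value is not given here for coding genes at large. The 14 genes of 2000 to 3000 bp had a median log2 fold change of -0.65 and 11 fell, where coding genes of that class had a median of 0.11 and 21.5% fell. The 7 genes of 3000 to 4000 bp had a median of -0.78 and 6 fell, beside -0.02 and 29.2%. The 11 genes of 4000 bp or more had a median of -0.71 and 8 fell, beside -0.23 and 42.3%. None of the 3 genes under 2000 bp fell, where coding genes of that class had a median of 0.49 and 6.64% fell. These classes used the longest transcript, coding or not. By the longest coding transcript Idh3b, Idh3g and Pdhb, which fell, and Suclg1 and Mpc2, which were not called, would also be under 2000 bp. With the offset 27 of the 35 genes fell and 3 rose, where 23.2% of all genes fell and 22.6% rose, and the median was -0.60. Of the 26 calls without the offset, 25 were also made with it, and 20 of the 25 falls were nearer 0. The cause of the trend with length was not tested.

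**Figure D2:**
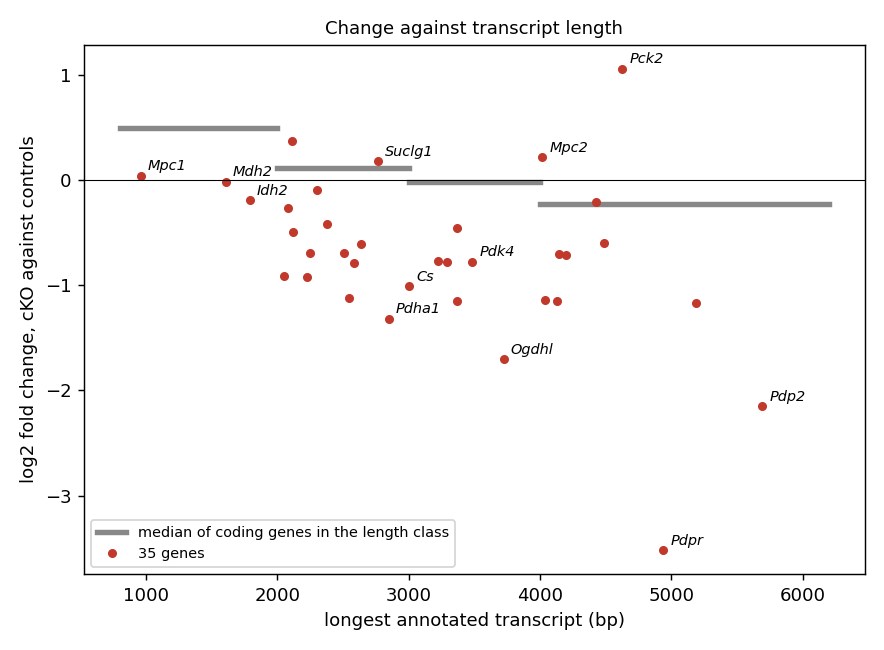
Each point is 1 of the 35 genes, with the length of its longest annotated transcript in bp on the x axis and its log2 fold change, cKO against controls, on the y axis; grey bars are medians of coding genes in 4 length classes. In the 3 classes above 2000 bp the genes' medians, -0.65, -0.78 and -0.71, lie below the grey bars at 0.11, -0.02 and -0.23.

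Citrate synthase (Cs, ENSMUSG00000005683, GRCm38 chromosome 10, 128337734 to 128362479, plus strand) joins acetyl-CoA to oxaloacetate and opens the cycle. Its level was 635, 490.0, 699 and 603 CPM in cKO replicates 1 to 4, 1256 and 1252 CPM in floxed hearts, and 1151 and 1229 CPM in Cre hearts. The highest cKO heart was well under the lowest control. Cs fell 2.01-fold (log2 -1.01, SE 0.12; edgeR adjusted p = 6.13e-05; -0.90 with the offset).

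Isocitrate dehydrogenase 3, the NAD-dependent enzyme of the cycle, has a catalytic subunit, Idh3a, and partners Idh3b and Idh3g. Idh3a fell 1.73-fold, from 490.0 ± 10.4 CPM in controls to 284 ± 33.9 CPM in cKO (n = 4 each). Idh3b fell 1.88-fold, from 503 ± 33.7 to 267 ± 62.9 CPM. Idh3g fell less, 1.20-fold, from 378 ± 12.6 to 315 ± 22.3 CPM (edgeR adjusted p = 0.0258). The Idh3g call was lost in 8 of 19 other settings, among them leaving out cKO replicate 2 or any 1 control heart, with edgeR adjusted p from 0.0531 to 0.340. With these unequal falls the Idh3a to Idh3g ratio of CPM was 0.899 ± 0.0516 in cKO and 1.30 ± 0.0551 in controls.

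The NADP-dependent isocitrate dehydrogenases, which supply NADPH, did not pass the test. Idh2, the mitochondrial form, stood at 1396, 1187, 1193 and 1055 CPM in cKO, 1617 and 1495 CPM in floxed, and 1208 and 1232 CPM in Cre hearts. The cKO hearts were all below the floxed hearts and straddled the Cre hearts. Idh2 fell against floxed by 0.37 on the log2 scale (edgeR adjusted p = 0.037) and differed by -0.01 from Cre (edgeR adjusted p = 0.939); the fall against floxed was lost without any 1 heart other than cKO replicate 1 (edgeR adjusted p from 0.0520 to 0.230). Against all controls its log2 fold change was -0.19 (SE 0.10; edgeR adjusted p = 0.149), and with the offset it was -0.54 (edgeR adjusted p = 0.00445). Without cKO replicate 1 Idh2 fell by 0.28 on the log2 scale (edgeR adjusted p = 0.0239). Idh1, the cytosolic form, had 40.0 ± 6.88 CPM in cKO and 42.7 ± 3.99 CPM in controls and was called in no setting.

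The oxoglutarate dehydrogenase complex turns 2-oxoglutarate into succinyl-CoA. Its E1 subunit gene Ogdh held 984, 760.0, 988 and 788 CPM in cKO, 2092 and 1940 CPM in floxed, and 1834 and 1949 CPM in Cre hearts. Each cKO heart was far below the controls, and Ogdh fell 2.22-fold (log2 -1.15, SE 0.12; edgeR adjusted p = 3.36e-05). Ogdhl, a related E1 gene, held 56.4, 33.1, 48.8 and 52.5 CPM in cKO, 211 and 168 CPM in floxed, and 101 and 153 CPM in Cre hearts. It fell 3.25-fold, the largest fall among the 15 cycle genes, although its controls were spread out. Dlst, the E2 subunit, fell 1.71-fold, from 567 ± 22.2 to 331 ± 32.0 CPM. Dld, the E3 subunit that this complex shares with pyruvate dehydrogenase, fell 2.18-fold, from 383 ± 10.8 to 175 ± 28.3 CPM.

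Succinyl-CoA ligase, which makes ATP or GTP directly, pairs a shared alpha subunit, Suclg1, with one of a pair of beta subunits. Sucla2, the ADP-specific beta subunit, fell 1.90-fold, from 523 ± 33.9 to 275 ± 42.0 CPM. Suclg2, the GDP-specific beta subunit, fell 2.23-fold, from 153 ± 6.36 to 68.9 ± 12.3 CPM. Suclg1 did not follow them: it stood at 285, 292, 323 and 346 CPM in cKO, 264 and 290.2 CPM in floxed, and 266 and 279 CPM in Cre hearts. Its log2 fold change was 0.18 (SE 0.09; edgeR adjusted p = 0.129), and it rose with the offset (0.31; edgeR adjusted p = 0.0158), under upper-quartile scaling (0.29) and under library size alone (0.31). The offset took the longest transcript of Suclg1, 2767 bp, whereas its longest coding transcript has 1519 bp. The Sucla2 to Suclg1 ratio was 0.887 ± 0.148 in cKO and 1.90 ± 0.0941 in controls, and every cKO heart was below every control.

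In the last steps, fumarase (Fh1) fell 1.52-fold, from 386 ± 16.3 to 253 ± 29.9 CPM. Mdh1, the cytosolic malate dehydrogenase of the malate-aspartate shuttle, fell 1.41-fold, from 1616 ± 65.5 CPM in controls. Mdh2, the mitochondrial malate dehydrogenase that closes the cycle, held 963, 891, 1045 and 1044 CPM in cKO, 1009 and 993 CPM in floxed, and 967 and 1015 CPM in Cre hearts. The groups overlapped, with a log2 fold change of -0.02 (SE 0.09; edgeR adjusted p = 0.902). With the offset Mdh2 fell by 0.23 (edgeR adjusted p = 0.0365), and its sign was positive under upper-quartile scaling.

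**Figure D3:**
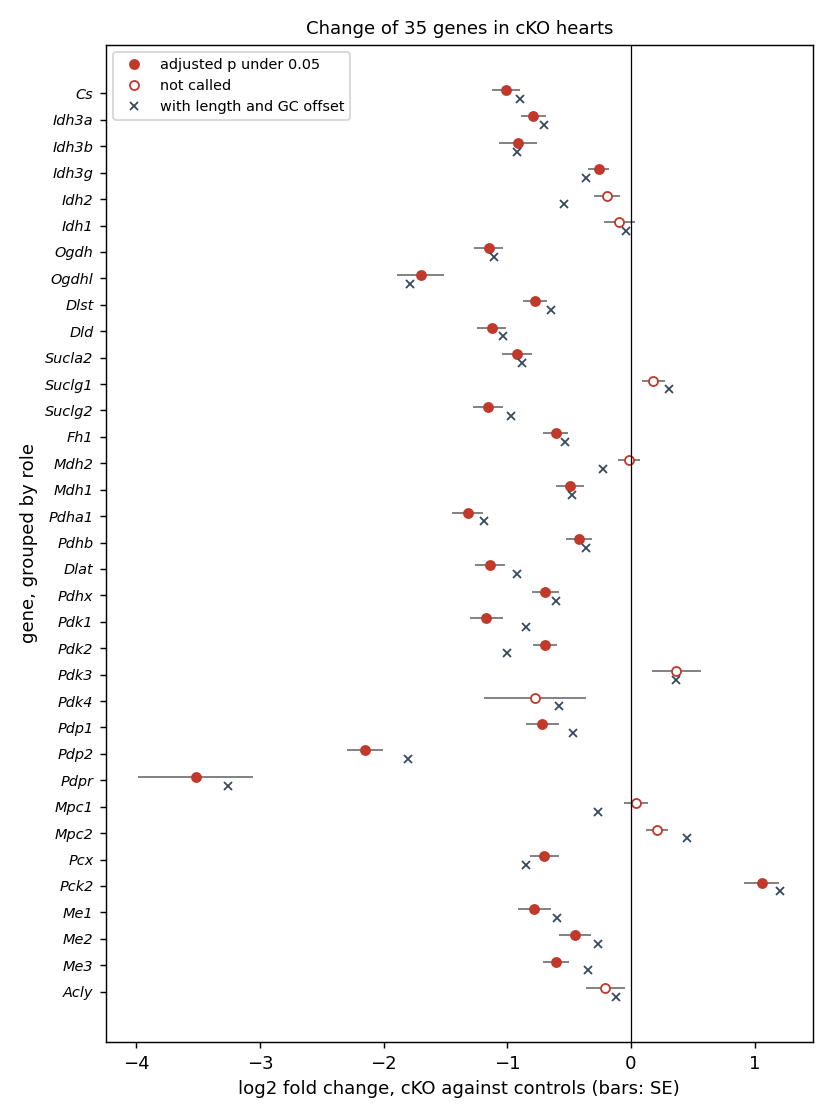
Red points are log2 fold changes of the 35 genes, cKO against controls, with bars for the SE; filled points passed an adjusted p of 0.05, open points did not, and crosses are values with the length and GC offset. Pdpr (-3.52) and Pdp2 (-2.15) lie farthest to the left and Pck2 (1.06) farthest to the right.

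All 4 genes specific to the pyruvate dehydrogenase complex fell, by unequal amounts. Pdha1, the E1 alpha subunit that carries the regulatory phosphorylation sites (ENSMUSG00000031299, GRCm38 chromosome X, 160122209 to 160138413, minus strand), held 476, 344, 475 and 365 CPM in cKO. Floxed hearts had 1041 and 1053 CPM and Cre hearts 987 and 1064 CPM. The cKO values were all under the lowest control, and Pdha1 fell by 1.32 on the log2 scale (SE 0.12; edgeR adjusted p = 2.71e-05). Pdhb, the E1 beta partner, fell 1.34-fold, from 540.2 ± 26.4 to 404 ± 46.4 CPM, a call lost under library size alone (log2 -0.28; edgeR adjusted p = 0.0768). The Pdha1 to Pdhb ratio was 1.02 ± 0.0861 in cKO, between 0.905 and 1.09, and 1.92 ± 0.0743 in controls, between 1.82 and 2.00. Dlat, the E2 core, fell 2.20-fold, with 161 to 237 CPM in cKO and 421 to 451 CPM in controls. Pdhx, the protein that tethers E3 to the core, fell 1.61-fold, from 107 ± 6.32 to 66.6 ± 9.18 CPM.

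**Figure D4:**
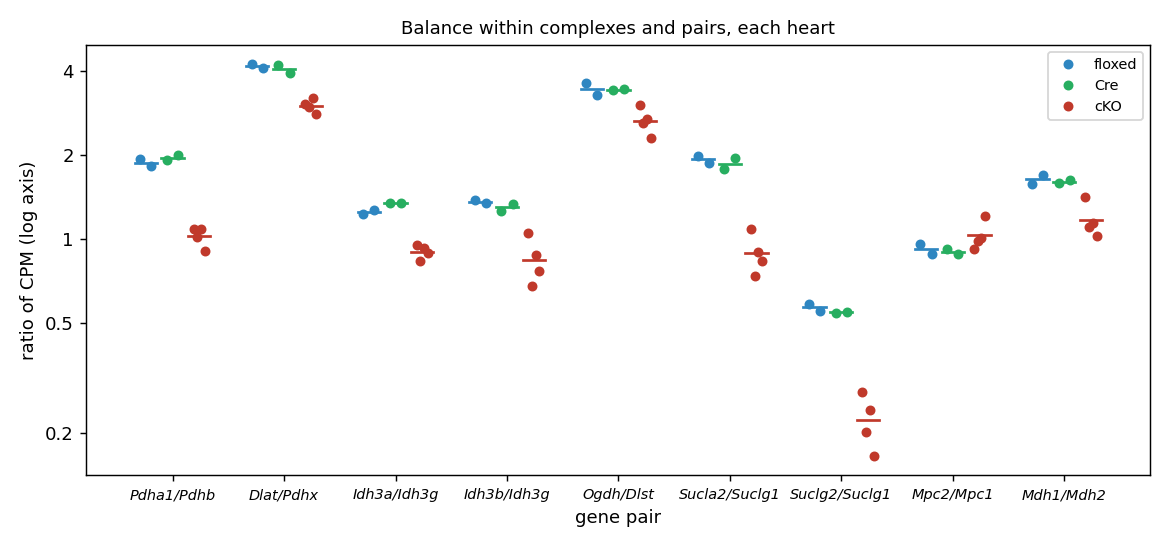
Each point is the ratio of the CPM of 2 genes in 1 heart, on a log axis, for pairs within a complex or enzyme family, and short lines are group means. The cKO hearts lie below all controls for pairs such as Pdha1/Pdhb and Sucla2/Suclg1, and overlap them for Mpc2/Mpc1.

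Of the 11 pairs taken, the ratio of Mpc2 to Mpc1 overlapped between cKO and controls, at 1.03 ± 0.123 and 0.909 ± 0.0362. For Pdp1 to Pdp2 and Sucla2 to Suclg2, which were not drawn, every cKO heart was above every control. All these ratios follow from the levels of the genes, were not tested and were not set against gene pairs at large. Within a pair, transcript lengths differ, so a ratio of CPM describes change and not the amounts of the subunits.

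Among the 35 genes the largest falls were those of 2 phosphatase genes, Pdpr and Pdp2. Pdpr encodes the regulatory subunit of pyruvate dehydrogenase phosphatase, and Pdp1 and Pdp2 its catalytic subunits. Their promoters are shown because Pdpr and Pdp2 fell most of the 35 genes, both on the plus strand of GRCm38 chromosome 8. The bases end just before the annotated gene start, at chr8:111094495-111094629 for Pdpr and chr8:104591222-104591450 for Pdp2 (RefSeq, GRCm38.p6, 5′ to 3′). No capitals are used, as no motif searched was found in either.
Pdpr: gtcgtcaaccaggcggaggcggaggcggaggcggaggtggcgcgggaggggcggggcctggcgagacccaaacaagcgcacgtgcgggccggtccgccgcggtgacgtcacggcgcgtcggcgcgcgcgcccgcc
Pdp2: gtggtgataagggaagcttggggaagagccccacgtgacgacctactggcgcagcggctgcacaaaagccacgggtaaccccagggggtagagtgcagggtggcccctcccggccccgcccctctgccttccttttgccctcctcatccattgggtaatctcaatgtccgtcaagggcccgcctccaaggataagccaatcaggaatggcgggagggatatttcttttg

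Pdpr (ENSMUSG00000033624, 111094630 to 111137074) was at 14.9, 5.34, 8.26 and 3.12 CPM in cKO replicates 1 to 4, 96.4 and 95.0 CPM in floxed, and 75.1 and 91.9 CPM in Cre hearts. These rest on 283, 108, 193 and 82 estimated counts in cKO and 1834 to 2250 in controls. The cKO hearts were far below the controls and also differed widely among themselves; their SD was 64.7% of their mean. Pdpr fell 11.5-fold (log2 -3.52, SE 0.47; edgeR adjusted p = 0.00111; -3.26 with the offset). Over 19 other settings its log2 fold change lay between -4.02 and -3.20. A transcript annotated in the same region, 9430091E24Rik, overlaps Pdpr, so reads of the pair may not be told apart.

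Pdp2 (ENSMUSG00000048371, 104591451 to 104599026) held 5.37, 4.40, 4.54 and 3.58 CPM in cKO, 17.8 and 20.7 CPM in floxed, and 17.7 and 22.9 CPM in Cre hearts. All cKO hearts were low, and Pdp2 fell 4.44-fold (log2 -2.15, SE 0.15; edgeR adjusted p = 1.34e-05; -1.80 with the offset). Pdp1 fell 1.64-fold, from 39.7 ± 5.03 to 24.3 ± 4.19 CPM (edgeR adjusted p = 0.00123). Per kb of the longest transcript, Pdp2 made up 12.0 ± 1.21% of the level of both catalytic subunits in cKO and 27.1 ± 4.87% in controls; with the median transcript length these shares were 7.67 ± 0.815% and 18.5 ± 3.77%.

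Of the 4 kinase genes of the complex, 2 passed the test. Pdk1 fell 2.25-fold, from 146 ± 11.4 to 65.0 ± 12.9 CPM. Pdk2 fell 1.62-fold, from 389 ± 39.3 to 239.6 ± 23.4 CPM. Pdk3 was scarce, with 4.18 ± 0.345 CPM in cKO hearts and 3.24 ± 0.806 CPM in control hearts, and was not called (edgeR adjusted p = 0.145), though it rose without Cre replicate 1 (log2 0.61; edgeR adjusted p = 0.026). Pdk2 made up the largest share of kinase transcript per kb of the longest transcript, 68.1 ± 8.71% in cKO and 64.7 ± 6.08% in controls, which overlapped. With the median transcript length, Pdk4 exceeded Pdk2 in cKO replicate 3 (48.5% against 41.5%) and Cre replicate 2 (44.3% against 43.3%). In the other hearts Pdk2 was still the larger.

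Pdk4, the kinase induced by fasting and fatty acids, was the most variable kinase. It held 101, 70.4, 238 and 110.5 CPM in cKO, 151 and 224 CPM in floxed, and 209 and 322 CPM in Cre hearts. Replicate 3 of cKO lay among the controls, and the other 3 cKO hearts lay below all of them. The log2 fold change was -0.78 (SE 0.41; edgeR adjusted p = 0.16). Without cKO replicate 3 Pdk4 fell by 1.24 on the log2 scale (edgeR adjusted p = 0.00287), and it also fell with a block for replicate number (-1.34; edgeR adjusted p = 0.00824) and with limma voom (-0.90; adjusted p = 0.0377). Replicate numbers 3 and 4 occur in cKO alone. The block fit thus sets only cKO replicates 1 and 2 against the controls, and it too leaves out replicate 3. Over the 19 other settings its adjusted p ranged from 0.00287 to 0.336.

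**Figure D5:**
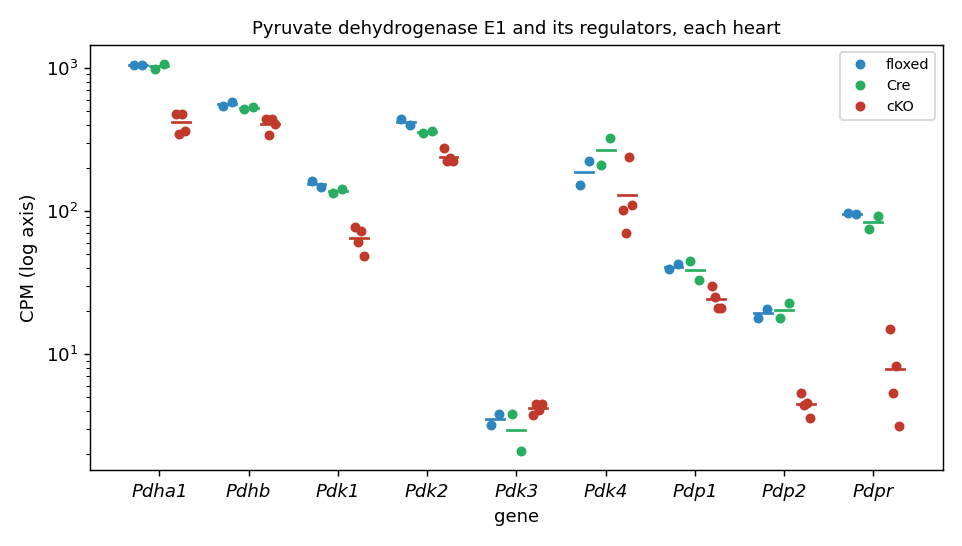
Each point is the CPM of 1 heart on a log axis for the E1 subunits of pyruvate dehydrogenase, its 4 kinases and its 3 phosphatase subunits, coloured by group, with short lines for group means. Pdpr and Pdp2 show the widest gaps between cKO and controls, and cKO and control points of Pdk3 and Pdk4 overlap.

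Neither pyruvate carrier subunit passed the test. Mpc1 averaged 284 ± 24.8 CPM in cKO hearts and 276 ± 18.2 CPM in control hearts (log2 0.04, SE 0.10; edgeR adjusted p = 0.738), and with the offset it fell by 0.26 (edgeR adjusted p = 0.0455). Mpc2 was at 285, 265, 303 and 311 CPM in cKO, 256 and 253 CPM in floxed, and 234 and 260.2 CPM in Cre hearts, so that the groups did not overlap. Its log2 fold change was 0.21 (SE 0.09; edgeR adjusted p = 0.0641). Mpc2 rose in 7 of 19 other settings, among them the offset (0.46; edgeR adjusted p = 0.0017), DESeq2 (0.22; adjusted p = 0.0309) and the fit without cKO replicate 2 (0.26; edgeR adjusted p = 0.0321). The offset took the longest transcript of Mpc2, 4015 bp, whereas its longest coding transcript has 1025 bp. An offset with the coding length was not tested.

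Among the enzymes of anaplerosis and of citrate or malate use, 4 of 6 fell and 1 rose. Pcx, pyruvate carboxylase, which makes oxaloacetate from pyruvate, fell 1.62-fold, from 38.4 ± 1.52 to 23.6 ± 3.68 CPM. The cytosolic malic enzyme Me1 fell 1.72-fold, from 116 ± 10.3 to 67.3 ± 12.7 CPM. The mitochondrial malic enzyme Me3 fell 1.52-fold, from 70.5 ± 10.2 to 46.1 ± 6.39 CPM, and Me2, the other mitochondrial form, fell 1.37-fold, from 8.01 ± 0.868 to 5.82 ± 0.675 CPM (edgeR adjusted p = 0.0119). The Me2 call was lost with the offset (edgeR adjusted p = 0.0965) and under library size alone (edgeR adjusted p = 0.0982). Acly, which cleaves exported citrate to acetyl-CoA, averaged 37.1 ± 4.34 CPM in cKO hearts and 43.2 ± 12.1 CPM in control hearts (edgeR adjusted p = 0.292), and fell without Cre replicate 2 (log2 -0.38; edgeR adjusted p = 0.0429).

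Pck2, the mitochondrial phosphoenolpyruvate carboxykinase, was the gene that rose. Its promoter, chr14:55540016-55540265 on the plus strand of GRCm38.p6, is shown up to the annotated gene start (RefSeq, 5′ to 3′). Capitals mark a match, read on the minus strand, to TGATGNAA, the letters of a composite site of ATF4 and C/EBP factors.
Pck2: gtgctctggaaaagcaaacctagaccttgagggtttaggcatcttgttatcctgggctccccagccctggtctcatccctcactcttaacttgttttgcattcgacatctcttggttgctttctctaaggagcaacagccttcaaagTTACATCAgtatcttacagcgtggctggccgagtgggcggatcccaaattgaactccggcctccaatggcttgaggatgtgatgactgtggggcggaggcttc
The match spans 103 to 96 bases before the gene start, and the motif was added to the search after Pck2 was seen to rise.

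Pck2 (ENSMUSG00000040618, 55540266 to 55551242) held 16.0, 18.2, 17.2 and 24.0 CPM in cKO, 9.72 and 8.50 CPM in floxed, and 9.64 and 8.32 CPM in Cre hearts. Every cKO heart was above every control, and the counts behind these values were 304 to 629 in cKO and 166 to 254 in controls. Pck2 rose 2.08-fold (log2 1.06, SE 0.14; edgeR adjusted p = 0.000135; 1.21 with the offset). Summed adipocyte markers, of which 2 of 9 rose, were 75.4 and 73.2 CPM in cKO replicates 1 and 2, 298 and 290 CPM in replicates 3 and 4, and 42.8 to 143 CPM in controls. Their part in the Pck2 result was not tested.

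Promoters of 32 of the 35 genes were found in the RefSeq table, as 43 windows of 300 bases, and 5 motifs were searched on both strands. TCAAGGTCA, the letters of the estrogen-related receptor site, was in none of them and in 0.423% of all promoters. The DR1 site of PPAR receptors was in none and in 0.0396% of all. The NRF1 site was in none and in 0.971% of all. CCGGAAGT, of ETS factors such as GABPA, was in Dlst alone and in 3.89% of all, and TGATGNAA was in Me3 and Pck2 and in 3.97% of all. A match describes letters in the window and is not a measured binding site.

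Set against each control group alone, the 35 genes gave close counts, but those 2 comparisons share the 4 cKO hearts. Against floxed 25 fell and 1 rose, with 23.1% of all genes lower and 19.8% higher; the median was -0.76. Against Cre 24 fell and 1 rose, with 22.8% of all genes lower and 19.6% higher; the median was -0.68. In 24 genes the call was made in the same direction against both. Ogdhl fell by 1.99 against floxed and by 1.41 against Cre, and Me3 fell by 0.78 and by 0.43. The Me3 call against Cre was lost in 5 settings: with the offset (-0.15; edgeR adjusted p = 0.383), under upper-quartile scaling (edgeR adjusted p = 0.0574), under library size alone (edgeR adjusted p = 0.128), without cKO replicate 3 (edgeR adjusted p = 0.0518) and without Cre replicate 1 (edgeR adjusted p = 0.123). Cre against floxed, which also tests the difference between these comparisons, called none of the 35 genes by edgeR (0.0981% of all genes), by DESeq2 or by limma voom. Of the 35 genes 2 had an unadjusted p under 0.05 there in edgeR, as had 526 of all 15289. The differences of largest size were -0.58 for Ogdhl and 0.50 for Pdk4, on the log2 scale.

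The 4 cKO hearts also differed among themselves. Replicate 2 had the lowest cKO level in 24 of the 35 genes and in 24.1% of all genes tested, and the highest in none and in 24.4%. Replicate 1 had the highest in 16 of the 35 genes and in 28.2% of all. Mitochondrial transcripts made up 29.3% of counts in replicate 2, 22.1% to 22.6% in the other 3 cKO hearts and 25.5% to 29.1% in controls. Its part in this pattern was not tested. Without replicate 2, 24 of the 35 genes fell and 2 rose, while 3754 of all genes fell and 3577 rose. The coefficient of variation was larger in cKO than in controls for 29 of 35 genes, with medians of 14.3% and 6.48%; it was larger in 65.7% of all genes tested, with medians of 15.3% and 10.9%.

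Other genes that feed or complete the cycle were read from a list of 51, of which 50 were tested. Of these 30 fell and 5 rose (median log2 -0.49), where 26.5% of all genes tested fell and 25.6% rose (median 0.04). With the offset 29 fell and 1 rose, where 23.2% of all genes fell and 22.6% rose. Mmut, the methylmalonyl-CoA mutase that brings propionate carbon to succinyl-CoA, fell 3.47-fold, from 113.8 ± 3.41 to 32.8 ± 7.99 CPM. Nnt, the transhydrogenase that makes mitochondrial NADPH, fell 3.39-fold, from 669 ± 85.4 to 197 ± 39.9 CPM. Acss1, which activates acetate in mitochondria, fell 2.64-fold. Sdha, the flavoprotein of succinate dehydrogenase, which acts at a step between the listed enzymes, fell 2.44-fold.

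The rises in that list were small. Sdhaf1, an assembly factor of succinate dehydrogenase, rose 1.38-fold, from 17.5 ± 1.98 to 24.0 ± 1.43 CPM, and also rose with the offset (log2 0.42). Mcee, the methylmalonyl-CoA epimerase, and Sdhb, the iron-sulfur subunit of succinate dehydrogenase, rose by 0.35 and 0.31 on the log2 scale. With the offset these were -0.09 and -0.11, and neither was called. The Sdhb call was also lost without any 1 of the 4 control hearts (edgeR adjusted p from 0.0640 to 0.0937).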

How the data were processed

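RNA sequencing measured transcripts in hearts of 8 mice. Per gene, 1 table deposited by the authors holds estimated counts (an expected count per gene and library, as read from its values): 71.95% to 76.34% of values above 0 were whole within 1e-06. STAR 2.5.1b, DESeq2 and the builds mm10 and GRCm38 are named in the submitters' processing notes. The counting program and strand setting were not given in the sources used here, so values of overlapping, antisense or near-identical genes are uncertain (Idh3b, Sucla2, Fh1, Mdh1, Pdha1, Pcx, Pdpr, Pck2, Pdk2, Mpc1, Me1 and Me3 overlap other annotated genes).

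The main test was designed for counts as deposited, so the estimates were rounded first. Genes were filtered with filterByExpr, leaving 15289, and fitted over all 8 libraries with a mean per group, leaving 5 residual degrees of freedom (edgeR 4.0.16, R 4.3.3, TMM scaling, robust quasi-likelihood). Standard errors (SE) are of log2 fold changes. Each library is labelled as 1 heart sample, and p-values measure the spread between these samples. Symbols, positions and lengths came from GENCODE M21 (GRCm38), which calls Mmut Mut; promoters came from RefSeq GRCm38.p6, without bases past the GENCODE gene start in those printed. The offset (mgcv 1.9.3) used the length and GC content of the longest annotated transcript, coding or not, known for 15216 genes tested. Levels per kb used the longest transcript. Other settings were median-ratio, upper-quartile and library-size scaling, a replicate block, no filter, a mean of at least 1 CPM, pooled controls, no robust fit, only the groups compared, DESeq2 1.42.0, voom from limma 3.58.1 and leaving out each library.

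The genes named were Elmsan1, the 35 genes, and of 51 other pathway genes the 4 largest rises and 4 largest falls called with a mean of at least 1 CPM; Sdha was added after its values were seen. Some genes under this rule are not reported here. The 35 genes and the lists were chosen with earlier results of these data known. Tested on simulated counts for cKO against controls (14952 genes), the fit recovered 22% of 100 genes changed by 0.5 and 82% of 100 changed by 1.0 on the log2 scale, and 8.77% of its calls were false. Figures were drawn with matplotlib 3.10.9.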

Additional observations from a re-analysis of the deposited data

How the results depend on the processing

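Of the 26 genes called in cKO against controls, 23 kept their call in all 19 other settings; Idh3g, Pdhb and Me2 lost it in some. Of the 9 not called, 8 were called in at least 1 setting and Idh1 in none. The number that rose was 3 under upper-quartile scaling, library size alone and the offset, 2 under a mean of at least 1 CPM, pooled controls and DESeq2, and 1 to 2 without single libraries. Against floxed it was 2 under upper-quartile scaling and the offset; against Cre it was 2 and 3, and 1 to 2 without single libraries. Other pathway genes that rose numbered 2 with the replicate block, 1 with the offset and 2 to 6 without single libraries. Among all genes, cKO against floxed called 1336 to 3227 higher and 2235 to 3810 lower without single libraries, the fewest without a floxed heart (1365 and 2235 without replicate 1, 1336 and 2288 without replicate 2). Against Cre 1460 to 3082 were higher, with 1801 without Cre replicate 1 and 1460 without Cre replicate 2. Cre against floxed called higher 3 genes with no filter, 0 at a mean of at least 1 CPM, 18 with the replicate block, 11 with only those groups, 8 with DESeq2, 2 with limma voom and 0 to 3 without single libraries. It called lower 9 under upper-quartile scaling, 28 with no filter, 66 with the replicate block, 54 with DESeq2 and 6 to 16 without single libraries. Where calls moved, the cause was not tested.

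Signs turned for values near 0. Idh1 was 0.022 under upper-quartile scaling and 0.039 under library size alone. Mdh2 was 0.098 and 0.12 there, 0.0096 at a mean of at least 1 CPM, 0.00017 with pooled controls and -0.040 to 0.037 without single libraries. Mpc1 was -0.26 with the offset and -0.014 to 0.089 without single libraries. Against Cre, Idh2 was 0.081 under upper-quartile scaling, 0.097 under library size alone, 0.0062 at a mean of at least 1 CPM, 0.078 with the replicate block and -0.11 to 0.049 without single libraries. With the offset Mcee was -0.093 and Sdhb -0.11. With the median transcript length, kinase shares in cKO and controls were 55.8% and 51.6% for Pdk2, 32.5% and 34.1% for Pdk4, and 10.6% and 13.8% for Pdk1.

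Whether replicate numbers, taken from the sample titles, pair the hearts cannot be told. Same-numbered deviations from group means correlated at 0.133 (cKO and floxed 1), -0.108 (cKO and Cre 1), -0.105 (cKO and floxed 2), -0.00167 (cKO and Cre 2) and -0.0448 (floxed and Cre). With 2 hearts in a control group their deviations mirror each other: cKO 1 gave -0.133 with floxed 2. Numbers 3 and 4 occur in cKO alone. The replicate block therefore fits those hearts exactly, and its comparisons of cKO rest on cKO replicates 1 and 2. With the replicate block 25 of the 35 genes fell and 1 rose, and 3007 of all genes rose and 3365 fell. In the simulated counts 22% of genes changed by 0.5 on the log2 scale were recovered. There only 100 genes of each size were changed among 14952, whereas 3909 rose and 4050 fell in the data. The adjusted p was therefore harder to pass in the simulation, and the 22% does not give the recovery in the data. Genes such as Idh2, Suclg1 and Mpc2 that were not called may still differ.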
